A study of Drosophila melanogaster with 2 samples.

Results

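Coding exon and 3' UTR regions are the candidate kay-binding regions whose summit, the position of the strongest signal, fell inside the exons of protein-coding genes and away from promoters. A region was counted when its summit lay over 500 bp from every protein-coding transcription start site (TSS) and in a coding sequence or a 3' UTR, but not in a 5' UTR. Of the 30000 pooled candidates in the dm6 build, 2571 (8.57%) met this rule, 1212 in coding exons and 1359 in 3' UTRs. They came from ChIP-seq of kay carrying GFP at its C-terminus, pulled down with an antibody against GFP from whole *Drosophila melanogaster* embryos of both sexes, collected at 0 to 24 hours. All samples formed 1 group, the kay-GFP strain without treatment, with biological replicates numbered 2 and 4, so no conditions were compared. The labels do not say whether untagged kay was also present, and the embryos mix all tissues and stages. In such material, strong binding in a few cells and weak binding in many cannot be told apart. The deposited lists give 30000 candidates per replicate and for the pool, each with a signal set by the authors' peak caller, and 3860 regions kept after the irreproducible discovery rate (IDR) procedure, here called IDR peaks. The IDR peaks are exactly the 3860 pooled candidates of highest signal, so overlap with an IDR peak and rank by signal are not separate evidence. Read depth is unknown.

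The kay gene encodes the fly Fos protein, a bZIP factor that pairs with the Jun protein Jra to form AP-1, an output of JNK signalling in dorsal closure and wound healing. AP-1 binds the heptamer TGACTCA, which reads TGAGTCA on the other strand. Binding sites of such factors are known mostly from promoters, introns and intergenic enhancers; an exon carries protein code or, in a 3' UTR, signals for the fate of the mRNA, and a factor bound there contacts the DNA and not the transcript. The sites shown here are 6 of those within exonic regions that were themselves IDR peaks, each read on the host gene's strand from the Release 6 genome (dm6), with 7 bases to either side and the AP-1 site in capitals. The Tctp site (chr3R:11211382-11211402, plus strand) and the CG33229 site (chr3L:225068-225088, plus strand) lay in 3' UTRs, 34 and 7 bp from the summit. The CG9784 site (chrX:16596592-16596612, minus strand) also lay in a 3' UTR, but 71 bp from the summit. The ThrRS site (chr2L:12107185-12107205, plus strand) was 31 bp from a summit in the 3' UTR, in intergenic sequence just past the end of the gene. The cta site (chr2L:22982306-22982326, plus strand) and the Dph4 site (chr3R:5622202-5622222, minus strand) were coding sequence, 22 and 3 bp from the summit.
Tctp: caccgtcTGAGTCAcagactt
CG33229: agtggtgTGAGTCAtgggcgc
CG9784: tagctgtTGACTCAgcgcctc
ThrRS: caacgtaTGAGTCAtgttttg
cta: ggtactcTGACTCAtcttatg
Dph4: acgatgaTGAGTCAcccgaag

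Exonic candidates rarely reached the IDR list. Of the 2571 regions, 56 overlapped an IDR peak by at least 1 bp (2.18%, exact Clopper-Pearson 95% interval 1.65 to 2.82%), whereas 17.2% of all pooled candidates did. Only 15 of 1212 coding exon regions overlapped an IDR peak (1.24%, interval 0.694 to 2.03%), and 41 of 1359 3' UTR regions did (3.02%, interval 2.17 to 4.07%). Among candidates in introns over 500 bp from a TSS the share was 12.9% (1627 of 12571, interval 12.4 to 13.5%), and in intergenic sequence 11.8% (631 of 5365, interval 10.9 to 12.7%). Both exonic intervals lay below those of introns and intergenic sequence. Counting only regions that were themselves in the IDR list left 9 in coding exons (0.743%, interval 0.340 to 1.40%) and 26 in 3' UTRs (1.91%, interval 1.25 to 2.79%). The share was 12.9% of all candidates, promoters included, 8.40% of those over 500 bp from a TSS and 9.65% of introns. With this count the coding exon and 3' UTR intervals overlapped. Intervals cover counting error only, and no test was made, because regions of 1 pooled list are not replicates of a condition.

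The scarcity was already visible among candidates in coding exons, but not in 3' UTRs. After the 500 bp around each TSS was set aside, coding exons made up 18.7 Mb (13.9% of bases) and held 4.04% of candidates, or 64.9 summits per megabase. The 3' UTRs made up 6.05 Mb (4.52% of bases) and held 4.53% of candidates, or 224.6 per megabase, close to the 224.1 of the whole genome and the 238.9 of introns. For IDR peaks the densities were 0.482 per megabase in coding exons, 4.30 in 3' UTRs and 23.1 in introns, against 28.8 in all. The figures for the whole genome include promoters, with 599.7 candidates and 137.7 IDR peaks per megabase. Intergenic sequence had 133.6 and 11.9. Thus 3' UTRs held candidates at about the genome's density but IDR peaks at a lower density than introns, while coding exons were low in both.

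**Figure D1:**
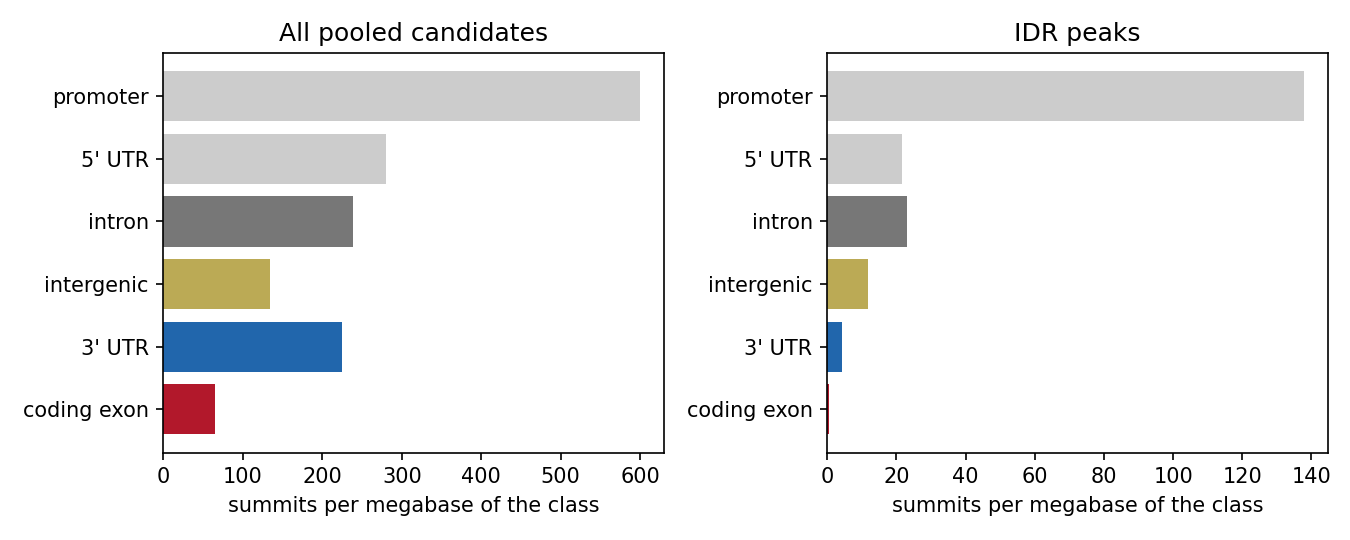
Summits per megabase of each location class, for all 30000 pooled candidates on the left and for the 3860 IDR peaks on the right, with both horizontal axes linear from 0. The 3' UTR bar is close to the intron bar among candidates (224.6 and 238.9) and shorter than it among IDR peaks (4.30 and 23.1); the coding exon bar is the shortest in both.

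Signals of the exonic regions were correspondingly low. The median pooled signal was 29.5 in coding exons (range 23.3 to 290.5) and 30.8 in 3' UTRs (range 23.3 to 433.7), against 36.2 in introns and 37.8 over all candidates. The weakest IDR peak had a signal of 93.6, so the typical exonic region lay well under the list's lower end. The median pooled rank was 21762.5 in coding exons and 20516 in 3' UTRs of 30000, and 16059 in introns.

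**Figure D2:**
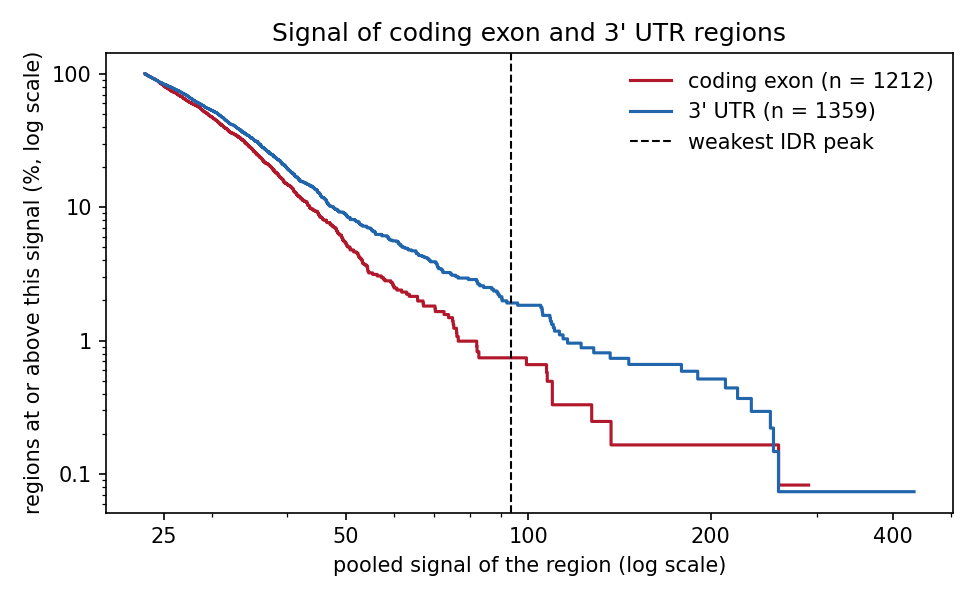
Percentage of coding exon regions (n = 1212) and 3' UTR regions (n = 1359) with a pooled signal at or above the value on the horizontal axis; both axes are logarithmic and the dashed line marks the weakest IDR peak (93.6). The curves start together at the low end, and 3' UTR regions reach that line in 1.91% and coding exon regions in 0.743% of cases.

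Distance from promoters differed between the classes, so the overlap was also read at matched distances. The median summit lay 1235 bp from the nearest protein-coding TSS in coding exons, 2053 bp in 3' UTRs and 3215 bp in introns. At 501 to 1000 bp from a TSS, 1.29% of coding exon regions, 3.43% of 3' UTR regions and 19.6% of intronic candidates overlapped an IDR peak. At 1001 to 2000 bp the shares were 1.30%, 5.06% and 14.4%. At 2001 to 5000 bp they were 0.816%, 1.84% and 12.2%, and farther than 5000 bp they were 1.71%, 1.35% and 9.92%. At every distance the intervals of both exonic classes lay below those of introns and of intergenic candidates. Intronic shares were lower at greater distance, while coding exon shares stayed between 0.816 and 1.71% with overlapping intervals.

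**Figure D3:**
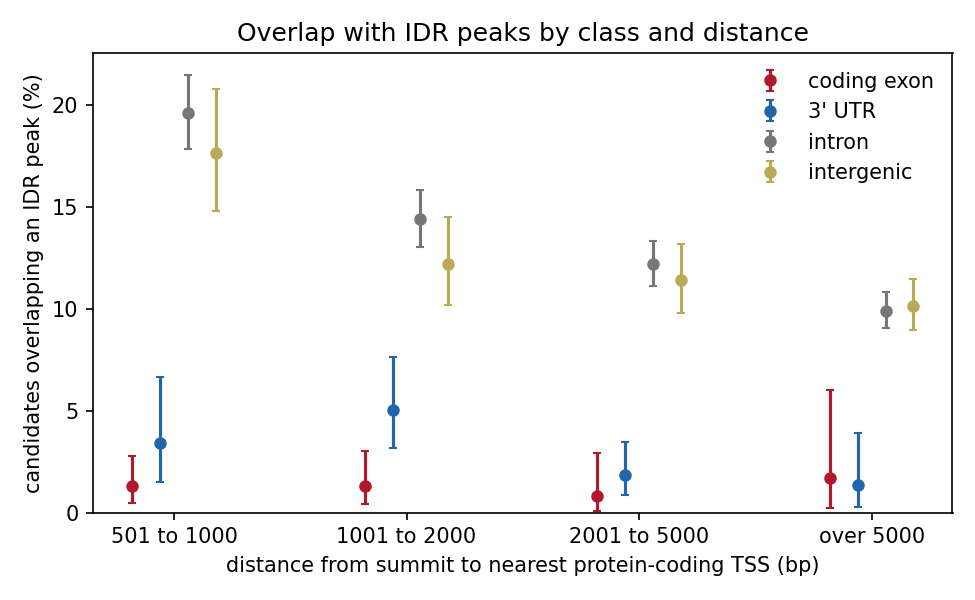
Percentage of candidates that overlap an IDR peak, by location class and by distance of the summit from the nearest protein-coding TSS; bars are exact 95% binomial intervals. At each of the 4 distances the points of coding exons and 3' UTRs, at most 5.06%, lie below those of introns and intergenic sequence, at least 9.92%.

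The base composition of exons differed as well. Within 100 bp of the summit the median GC content was 49.3% for coding exon regions, 35.3% for 3' UTR regions and 38.3% for introns. Candidates over 500 bp from a TSS were divided at 35.3% and 42.3% GC into 3 parts of similar size. In the most GC-rich part, 14 of 946 coding exon regions (1.48%, interval 0.811 to 2.47%) and 13 of 227 3' UTR regions (5.73%, interval 3.08 to 9.59%) overlapped an IDR peak, against 12.4% of introns. In the middle part the counts were 1 of 212 coding exon regions (0.472%) and 10 of 424 3' UTR regions (2.36%), against 12.5% of introns. In the most AT-rich part they were 0 of 54 coding exon regions (interval up to 6.60%) and 18 of 708 3' UTR regions (2.54%), against 13.9% of introns. The exonic shares were thus below the intronic share in all 3 parts.

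The rule's limit of 500 bp left out some strong exonic regions. Just outside it, at 251 to 500 bp from a TSS, 15 of 257 coding exon summits and 14 of 117 3' UTR summits overlapped an IDR peak. Just inside, at 501 to 750 bp, 3 of 242 and 4 of 112 did. Regions that were IDR peaks themselves numbered 8 and 8 just outside the limit, and 1 and 1 just inside. Typical signals differed less. The median in coding exons was 30.9 just outside and 30.5 just inside, and in 3' UTRs it was 33.7 and 29.5. Outside the limit, a coding exon region of puc, the phosphatase that limits JNK signalling, lay 482 bp from a TSS (signal 765.0, rank 47). A coding exon region of Pect (signal 128.6, rank 2309) lay nearer to the limit, at 484 bp. Inside the limit, a coding exon region of CG9166 at 501 bp had a signal of 27.5 and that of cta, at 522 bp, one of 109.6.

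The strongest exonic region of all lay in the last exon of Cals, on chromosome 4. Cals encodes calsyntenin, a cadherin-family membrane protein of synapses, and the region covered 1113219 to 1113501 in its 3' UTR. Its pooled signal of 433.7 ranked 193, and it ranked 202 in replicate 2 and 197 in replicate 4. No other exonic region ranked as high in either library. The next 3' UTR region was in by, the tensin gene, which links integrins to actin (3R 9528568 to 9528737, signal 259.0, rank 555). It ranked 1006 in replicate 2 and 319 in replicate 4. Both lay several kilobases from a TSS, 9631 bp for Cals and 4380 bp for by.

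Several of the next 3' UTR regions were in genes with a single exon in the transcript used, namely mlt, Tctp, CG7872 and CG8206. The region in mlt, a gene like tubulin-folding cofactor E (2R 10156022 to 10156477), had a signal of 254.1 and rank 587, and ranked 789 and 460 in replicates 2 and 4. Its summit was also in an intron of KCNQ, a potassium channel gene, so the exon belonged to a gene inside another. The region in Tctp, a growth regulator (3R 11211341 to 11211504), had a signal of 251.1 and rank 607, with ranks of 703 and 551. Of the 26 3' UTR regions in the IDR list, 11 had a host transcript of 1 exon, compared with 111 of all 1359 (8.17%). The 11 include 2 overlapping regions in mlt and 2 in Tctp. The transcript used was the one with the most exonic bases among those placing the summit in a 3' UTR, so other transcripts may be spliced.

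In puml, a gene of lipid metabolism (2R 7814928 to 7815383), the signal was 233.6 and the rank 716, with ranks of 641 and 742 in replicates 2 and 4. In APC7, a subunit of the anaphase-promoting complex (X 6599199 to 6599654), the signal was 221.7 and the rank 802, with ranks of 1068 and 601. A region of CG7872 (X 15579723 to 15579839) had a signal of 211.7, rank 888 and ranks of 976 and 865. These 3 regions were thus among the strong candidates of both libraries. The region of stas (X 17624886 to 17625341, signal 190.5, rank 1082) ranked 1810 and 1226, and that of CG8206 (X 15740383 to 15740500, signal 179.0, rank 1225) ranked 1327 and 1421. The summit in CG8206 was only 7 bp from the transcript's end, and 29.7% of the region was exonic. The region of CG9837 (3R 8808390 to 8808845, signal 146.6, rank 1794) ranked 2468 in replicate 4 and had no summit within 100 bp in replicate 2.

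The last of the 12 strongest 3' UTR regions were in REG and Pde1c. REG, a proteasome activator gene (X 13214015 to 13214470), had a signal of 136.5, rank 2063 and ranks of 2492 and 2027. Pde1c, a cyclic nucleotide phosphodiesterase gene (2L 11816315 to 11816770), had a signal of 128.3, rank 2322 and ranks of 2585 and 2118. The other 3' UTR regions in the IDR list had signals from 96.0 to 122.3. Their hosts were CG33307, CG14440, mlt and Tctp again, CG33229, scf, NetB (a netrin of axon guidance), CG10222, ThrRS (threonyl-tRNA synthetase), Bre1 (the ubiquitin ligase of histone H2B), dao, CG5984, CG9784 and CG1888.

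Among coding exons the strongest region lay in hth, the homeodomain partner of Hox proteins. It covered 3R 10605142 to 10605357 in exon 2 of 14, at 7.10% of the coding sequence and 8996 bp from the nearest TSS. Its signal was 290.5 and its rank 442, with ranks of 433 and 548 in replicates 2 and 4. The second was in the last exon of otp, another homeodomain gene (2R 20884368 to 20884823), at 91.7% of the coding sequence. Its signal was 259.1 and its rank 553, but the replicates placed it at 402 and 1232. The remaining 7 coding exon regions in the IDR list were weaker, with signals from 99.3 to 137.0.

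Of these 7, klar, which positions nuclei, had the strongest (3L 505999 to 506454, signal 137.0, rank 2048, replicate ranks 1957 and 2893). CG10357 followed (3L 3616303 to 3616758, signal 127.3, rank 2351, replicate ranks 2456 and 2472). Tlk, a kinase of chromatin assembly (X 3777125 to 3777580, signal 109.6, rank 2999), ranked 3597 and 3095, and its summit was 29 bp from the start of a microRNA gene, mir-4962. The rule's TSSs are those of protein-coding genes, and 84 of the 2571 regions (3.27%) had a noncoding TSS within 500 bp. The region of cta, the G protein alpha subunit of gastrulation (2L 22982110 to 22982565, signal 109.6, rank 3000), ranked 3641 and 2966. Uba1, the ubiquitin-activating enzyme (2R 9692186 to 9692641, signal 107.5, rank 3104), ranked 2283 in replicate 2 and 8248 in replicate 4. CG8026 (2R 9191109 to 9191564, signal 107.2, rank 3115) ranked 2690 and 3327. Dph4, of diphthamide synthesis (3R 5621981 to 5622436, signal 99.3, rank 3536), ranked 4166 and 4030. Apart from Uba1, the ranks of these regions in the replicates were within 1.5 times of each other.

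The other 21 overlapping regions were not IDR peaks themselves but neighbours of one, with summits 200 to 311 bp from the IDR summit. That summit lay in a 3' UTR for 6 of them, in intergenic sequence for 6, in an intron for 6 and within 500 bp of a TSS for 3, and in no case in a coding exon. All 6 such coding exon regions therefore overlapped a peak centred elsewhere. The strongest was in scrib, a cell polarity gene (3R 26566891 to 26567346, signal 76.6, rank 5216), 210 bp from an IDR summit in a scrib intron. It ranked 2848 in replicate 2 and 16627 in replicate 4. CG8300 (X 7105698 to 7106153, signal 42.5) and Kank (2R 14910001 to 14910456, signal 40.6) came next, also beside intronic summits, at 200 and 210 bp. The other coding exon hosts were Pp1-87B (a protein phosphatase catalytic subunit), Socs36E (a suppressor of JAK/STAT signalling) and CG6678. The 3' UTR hosts were CG9837, CG33229 with 2 regions, the overlapping genes cathD and puml, Mo25, Cht7 (a chitinase), CG8188, CG7627, CNBP, CG1888, CG14810, Rnf146, sbr (of mRNA export), RpS23 and dao. Altogether the 56 regions lay in 49 host genes.

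Strong candidates that overlapped no IDR peak continued the same scale downwards. In 3' UTRs they were led by CG33494 (signal 92.2, rank 3954), Myd88, the Toll pathway adaptor (signal 90.5, rank 4061), CG18870, CG6996 and CG11378. The 5 ranked from 3954 to 4189. In coding exons they were led by Dap160, an endocytic scaffold (signal 82.9, rank 4676), btsz (rank 4728), Snx1, a sorting nexin (rank 4737), HisRS (rank 5255) and bif (rank 5262). Of the 2571 exonic regions, 235 had a signal above 50% of that of the weakest IDR peak. The upper quartile of signal was below that level in exonic regions (36.6). It was above that level in introns (53.8) and over all candidates (59.7).

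The replicates shared fewer exonic regions than intronic ones. A candidate with its summit within 100 bp was present in replicate 2 for 1461 exonic regions (56.8%), in replicate 4 for 1177 (45.8%) and in both for 536 (20.8%). For introns the share found in both was 37.8%. Spearman's rho between the replicates' ranks was 0.365 over those 536 regions and 0.672 over 4753 intronic ones, as a description across regions that share the same 2 libraries. Introns hold more strong regions, and among regions that overlapped no IDR peak the values were 0.247 (n = 494) and 0.372 (n = 3474). Of the 35 exonic IDR peaks, 34 had a match in both replicates. Of the 35, 26 were among the strongest 3860 of replicate 2, 27 among those of replicate 4 and 21 among both. The widest disagreement was in CG33307, with rank 1447 in replicate 2 and 15949 in replicate 4.

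**Figure D4:**
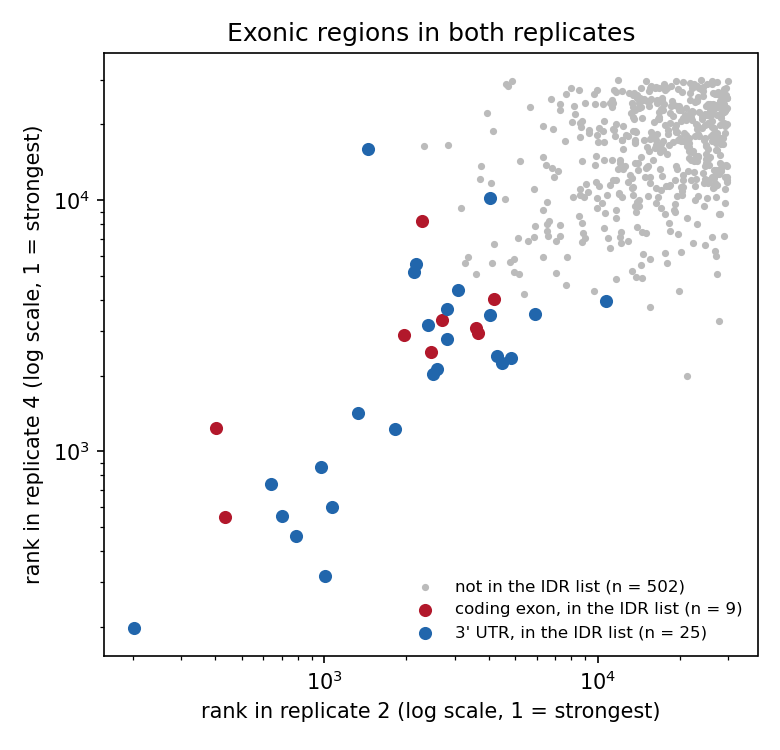
Rank of each exonic region in replicate 2 (horizontal) and replicate 4 (vertical), both on log scales with 1 as the strongest, for the 536 regions with a summit within 100 bp in both lists. Regions in the IDR list, 9 in coding exons and 25 in 3' UTRs, run towards Cals at the lower left (Spearman's rho 0.597). Several lie off the diagonal, among them Uba1, otp and the weaker Tctp region, and CG33307 at the top lies farthest from it. The other 502 crowd at the high ranks.

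Within genes, the exonic regions were spread along the coding sequence and the 3' UTR. Coding exon summits were more numerous at the ends of the coding sequence. The first 20% held 279 and the last 20% held 322, against 194 to 216 in each 20% between. The bases that the 500 bp limit left in each 20% were not counted, so these are not densities. Coding exon regions that overlapped an IDR peak numbered 7, 3, 0, 1 and 4 from the start to the end. In 3' UTRs, 189 summits lay within 100 bp of the transcript's end, and 10 of these overlapped an IDR peak (5.29%). Of the 345 summits over 1000 bp from the end, 6 did (1.74%). Shares in the distance steps between were 3.05%, 3.88% and 2.30%, and no interval was computed for any step. Of the 10, those in CG7627, sbr and RpS23 were only neighbours of an intergenic IDR summit. Those in CG14810 and dao were neighbours of an intronic and a 3' UTR summit. Of the 6, the weaker regions of CG9837 and CG1888 were neighbours of a 3' UTR summit. In the transcript used, 98.4% of 3' UTR summits were in the last exon. The summit was exonic in every coding transcript covering it for 88.8% of coding exon and 87.2% of 3' UTR regions. The nearest TSS belonged to the host gene for 74.6% of coding exon regions but 40.5% of 3' UTR regions.

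**Figure D5:**
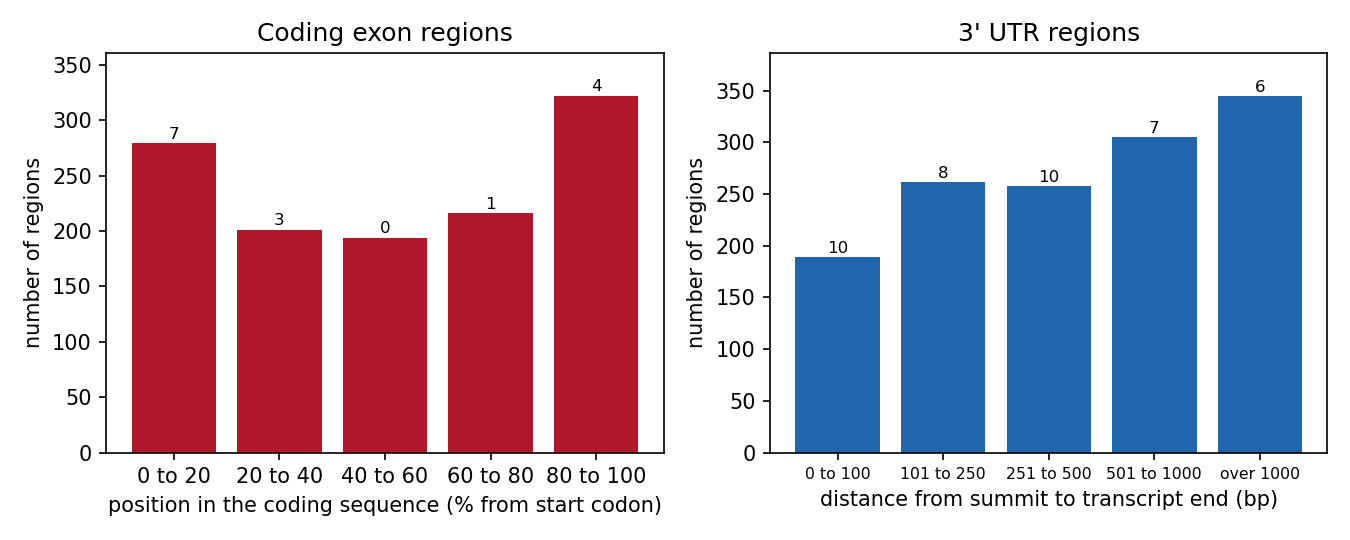
Number of coding exon regions by position in the host's coding sequence (left, from the start codon, in steps of 20% of its length) and of 3' UTR regions by distance of the summit from the transcript's end (right, in bp). The number on each bar counts the regions that overlap an IDR peak, 15 in coding exons and 41 in 3' UTRs.

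Chromosome 4 was unlike the other arms. It held 102 exonic regions, 20.3% of its 503 candidates, whereas on the other 5 arms the share was 7.72 to 8.61%. Coding exons of chromosome 4 had 255.0 candidates per megabase against 40.7 on X, the lowest, and 73.8 on 3L, the highest of the rest. Its 3' UTRs had 377.0 per megabase against 206.0 to 232.2. The chromosome was denser in candidates as a whole, with 373.1 per megabase, and coding exons took 18.9% of its bases against 12.9 to 14.6% elsewhere. The median signal of its exonic regions was 31.5, near the 30.1 of the others. Of its 102 exonic regions only that of Cals overlapped an IDR peak, against 2.18% of all exonic regions. Introns and promoters on the chromosome held few IDR peaks for their number of candidates, while the intergenic share was closer to that of all arms. There, 0 of 199 intronic, 5 of 83 intergenic and 6 of 112 promoter candidates were IDR peaks. Over all arms these shares were 9.65%, 8.89% and 23.0%.

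An AP-1 site was less frequent in exonic than in intronic regions, and more frequent in strong than in weak exonic ones. On either strand, 45 of 2571 regions had a site at most 50 bp from the summit (1.75%, interval 1.28 to 2.34%), 25 in coding exons (2.06%) and 20 in 3' UTRs (1.47%). In introns the share was 3.19% (interval 2.89 to 3.51%) and over all candidates 2.50%. The exonic share was close to that of intergenic candidates (1.96%, interval 1.60 to 2.36%), promoters (2.10%) and 5' UTRs (2.02%). Among the 56 exonic regions that overlapped an IDR peak, 8 had a site (14.3%, interval 6.38 to 26.2%), against 37 of the other 2515 (1.47%, interval 1.04 to 2.02%). In introns the corresponding shares were 5.65% (interval 4.58 to 6.89%) and 2.82%. The 14.3% was thus above the share of exonic regions that overlapped none, but its interval overlapped the intronic one. Of the 35 exonic regions that were IDR peaks themselves, 6 had a site (17.1%, interval 6.56 to 33.6%). Ranked by signal in 5 parts of about 514 regions, the exonic regions had a site in 4.09% of the strongest part and in 1.56%, 1.55%, 0.389% and 1.17% of the others.

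The 8 regions with a site comprised mlt, Tctp, CG33229, ThrRS, cta and Dph4, which were IDR peaks, and CG14810 and Rnf146, which overlapped one. The last 2 were weak themselves, with signals of 31.8 and 31.5. The 4 bp between site and summit in mlt and the 3 bp in Dph4 were the shortest of these distances. Sites were counted more densely near exonic summits than farther off. Per 100 summits and 20 bp there were 0.880 within 60 bp of coding exon summits and 0.413 at 300 to 400 bp. In 3' UTRs the values were 0.564 and 0.235, and in introns 1.29 and 0.558. The exonic values rest on few sites, 32 and 25 in coding exons and 23 and 16 in 3' UTRs, and no interval was computed. In 3' UTRs they were uneven, with 0.221 at 40 to 60 bp and 0.809 at 80 to 100 bp. Exonic regions held 155 different sites at full width, and 43 of these lay wholly in the host's coding sequence. None of the 43 began at codon position 1, where TGA would read as a stop codon, so that count was fixed in advance. Of the 43, 18 began at position 2, cta among them, and 25 at position 3, as in Dph4.

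Host genes were many, and most hosted 1 region. The 2571 regions lay in 1989 genes, of which 1546 had 1 region, 309 had 2 and 134 had 3 or more, and 61 regions lay in exons of 2 genes. Imp, which encodes an mRNA-binding protein, and unc-13, of synaptic vesicle priming, had 8 each. The splicing factor gene ps had 7, and Pdp1, a bZIP factor gene, and corto, a chromatin gene, had 6 each, as did Tm1 and pan. None of the regions in these 7 genes overlapped an IDR peak, a count to be read against the 2.18% of all exonic regions that did. Their exons are long, with 9294 to 22598 exonic bases per gene, against medians of 2877 over all hosts and 1739 over all genes.

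Many host genes were bound at their own promoter. An IDR summit lay within 500 bp of a TSS of the host for 900 of 2571 regions (35.0%, interval 33.2 to 36.9%), for 31.4% of coding exon and 38.2% of 3' UTR regions. For intronic candidates the share was 39.1%. Counted once each, 643 of 1989 host genes (32.3%) had such a peak, as did 2616 of all 13945 protein-coding genes (18.8%). The hosts' larger exonic length stands beside this difference, and its part in it was not tested. For the 35 exonic IDR peaks the share was 31.4%, so most of them, those in Cals, Tctp and otp included, had no IDR summit at a start of their host.

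Gene groups of kay biology hosted exonic regions with median signals inside the quartiles of all exonic regions (26.1 to 36.6). The median signal was 36.0 for the 15 regions in AP-1 and JNK genes, close to the upper quartile. It was 30.1 for those in dorsal closure cytoskeleton genes and 27.2 for those in septate junction genes, against 30.1 over all 2571 regions. Over all genes, 14.3% hosted a region, and 2.18% of the regions overlapped an IDR peak, a share at which lists of this size would hold few or no overlaps. Of 22 AP-1 and JNK genes, 10 hosted 15 regions, and none of the 15 overlapped an IDR peak. The strongest of these were in raw, a restrainer of JNK signalling (coding exon, signal 50.8, rank 9605), the apoptosis gene hid (3' UTR, signal 46.3, rank 11045) and puc (a coding exon 1440 bp from a TSS, signal 43.5, rank 12152). Neither kay nor Jra, looked up after the values were seen, hosted any. The dorsal closure cytoskeleton list had 22 genes, among them sqd, pnr, ush and cbt, which are not cytoskeletal genes. Of the 22, 12 hosted 20 regions with 0 overlaps, and 2 of the 20 regions were in sqd. The strongest were in the 3' UTRs of Rac2, a Rac GTPase gene (signal 72.2, rank 5676), and chic, the profilin gene (signal 58.8, rank 7689). A coding exon of Moe, the moesin gene, came next (signal 38.9). Of 14 septate junction genes, 10 hosted 16 regions, and 1 overlapped, that of scrib; the next in strength were the 3' UTRs of the claudin gene sinu (signal 55.3) and the sodium pump gene Atpalpha (signal 44.8). Genes of these lists also differ in length and expression, and the part of either was not tested.

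The other groups gave 2 more overlaps. Of the 18 homeodomain genes listed, which do not include otp, 4 hosted 5 regions, among them hth, whose coding exon region was described above, and the Hox genes lab (signal 33.7) and Scr (signal 26.1). Of 93 translation genes, 24 hosted 34 regions and 1 overlapped, in RpS23; the strongest were in eIF4A (signal 63.0), pAbp (signal 49.4) and RpS26 (signal 47.8). Of 16 muscle genes, 5 hosted 14 regions, the strongest in TpnC73F (signal 67.4), Tm1 (signal 46.5) and Mef2 (signal 45.9). Of 13 extracellular matrix and integrin genes, 3 hosted 4 regions, in the integrin genes if (signal 54.3, with an AP-1 site near the summit) and mys (signal 29.4) and in the perlecan gene trol (signal 27.7). Of 9 nervous system genes, elav (signal 61.8) and Fas2 (signal 29.4) hosted 5. Of 10 heat shock genes, Hsp83 alone hosted 3, the strongest with a signal of 28.8. The 115 histone genes had 2 regions, in the variant genes His2Av (signal 44.4) and His3.3B (signal 26.0), and the 110 cuticle genes had 1, in Cpr78Cb (signal 37.3). A gene lying wholly within 500 bp of protein-coding TSSs could host no region, so short genes had little or no sequence to count. How many genes of each list this covers was not computed. None of the regions in the muscle, matrix, nervous system, heat shock, histone and cuticle groups overlapped an IDR peak, against 2.18% of all exonic regions.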

How the data were processed

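Peak lists of 2 replicates and of both pooled were analysed. Each carries a signal value per region that the authors deposited; the sources used here name neither its unit, its scaling between libraries, the peak caller nor the aligner, so signal was used to rank and describe regions within a list. Per the deposited descriptions, each list was made against 1 control file; per the labels, chromatin was sonicated to 200 to 800 bp. Depth is unknown. The dm3 lists were not used here. Summits were placed on 13945 protein-coding genes (19252 TSS positions, Ensembl release 115) and sites were read from the Release 6 genome, with Python 3.11.15, numpy 2.4.6, pandas 2.3.3, scipy 1.17.1 and matplotlib 3.10.9. A second placement method gave the same class for 30000 of 30000 summits, and overlaps and site searches were tested on simulated data. Members, gene lists (11) and alternatives were chosen with earlier results of these data known. Genes named were the hosts of all regions overlapping an IDR peak, the 5 strongest others per class, the 5 hosts with most regions (with ties) and up to 3 hosts per list; kay, Jra and regions at the 500 bp limit were added. No test was run, as 1 group of 2 replicates allows no comparison of conditions.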

Additional observations from a re-analysis of the deposited data

How the results depend on the processing

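Of 30 alternatives, 20 stayed inside the interval of the reported share and 10 did not. The coding exon overlap of 1.24% became 2.04% with summits over 250 bp from a TSS and 0.413% against the strongest 1930 IDR peaks, with 0.743% both for regions themselves in the IDR list and with 1 region per cluster, and ranged from 1.00 to 1.79% with each replicate left out. The 3' UTR overlap of 3.02% became 1.91% for regions themselves in the IDR list, 1.40% against the strongest 1930 and 2.10% with 1 region per cluster, and ranged from 2.67 to 3.11%. The 3' UTR share was above the coding exon share in all 10 alternatives, but their intervals overlapped in 6. In the 8 alternatives also computed for introns, the intronic share was 6.17 to 14.0% and its interval lay above both exonic intervals. The AP-1 share of 1.75% became 3.23% within 100 bp, 6.11% over the whole region and 3.46% with any middle base, and ranged from 1.45 to 1.50%. The share with a bound host TSS became 41.0% within 1000 bp and 32.3% with each host once, and ranged from 34.3 to 34.8%. No paired analysis was possible because no second group exists. The lists give no read counts, so weak and absent binding cannot be told apart, and candidates may hold background. Overlapping regions are not independent (2339 clusters). Exonic regions came from whole embryos, and binding in single tissues was not measured.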
